A study of Homo sapiens with 4 samples.

Results

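The 36 genes described here are enzymes and transporters of glycolysis (22 genes), other genes that cells switch on when oxygen is low (13 genes), and HIF1A, which encodes the oxygen-regulated subunit of the hypoxia-inducible transcription factor. They were chosen by name, with earlier results of these data known. Every probe annotated to one of the symbols (PKM also under its older name PKM2) was used. A probe was found for 35 of the 36 genes, 64 probes in all; CA9, a carbonic anhydrase, had no probe under its symbol. Of the 35 genes, 33 were above background on at least 1 array, out of 11262 such genes among the 20044 genes with a probe. The exceptions were PDK1, a kinase that inhibits pyruvate dehydrogenase, and EGLN3, a prolyl hydroxylase.

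HT-29 cells, a human colorectal adenocarcinoma line, were labelled as treated for 48 h with 20 µM cyclopamine, a plant alkaloid that acts on Smoothened in the Hedgehog pathway, or with 20 µM GANT61, an inhibitor of the GLI transcription factors. Total RNA was hybridised to Illumina HT-12 V4 arrays, with 1 array for each of 4 groups on 2 chips. Chip 1 held cyclopamine and a control, and chip 2 held GANT61 and a DMSO control. What the chip 1 control received is unclear, since its title and treatment name DMSO while its source name gives tomatidine, an alkaloid related to cyclopamine, so it is called the chip 1 control here. The labels record no low-oxygen culture.

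Glycolysis splits glucose into pyruvate in the cytosol, and cells that lack oxygen, as well as many tumour cells, lean on it for ATP. HIF1A protein is marked for destruction by prolyl hydroxylases while oxygen is present; when oxygen falls it accumulates, binds the short DNA motif ACGTG or GCGTG, and raises transcription of glucose transporters, most glycolytic enzymes, VEGFA and the hydroxylases themselves. Much of this regulation acts on the stability of the protein, which arrays do not measure.

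With 1 array per group there is no replicate and no test. Each value is a normalised log2 intensity, and each change is the log2 ratio of the treated array over the control of its chip. The error given is the SD per probe, which measures how far separate probes for 1 gene scatter in their log2 ratio: 0.23 for cyclopamine (over 1823 genes), 0.26 for GANT61 (over 2343 genes) and 0.55 for the chip 1 control against the chip 2 control (over 1835 genes). It does not cover the variation between cultures. A gene was called higher or lower where it differed by at least 1.5-fold, which is 0.585 on the log2 scale, and it entered a comparison where its detection p was under 0.01 on at least 1 of the 2 arrays. The values come from bulk RNA, in which fewer expressing cells and less RNA per cell cannot be told apart.

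The chips differed in more than the compounds. Arrays of the same chip correlated at 0.982 or 0.983 over all probes, and arrays of different chips at 0.873 to 0.877. Of 15 epithelial markers, 3 were above background on each chip 1 array (KRT8, KRT18 and CLDN7) and 13 on each chip 2 array. The epithelial markers EPCAM, CDH1, KRT19 and LGALS4 were below background on chip 1, against the label of HT-29. CDX1 and CEACAM5 were below background on all 4 arrays. Of 12 mesenchymal markers, 4 were above background on the chip 1 arrays (VIM, CDH2, SNAI2 and COL1A1) and 1 on the chip 2 arrays (VIM). None of 5 endothelial markers was above background on any array. Of 5 leukocyte markers with a probe, 1 was above background on each chip 1 array (CD68). On chip 2, 3 were above background with GANT61 (CD14, CD68 and ITGAM) and 2 in the control (CD14 and CD68). The summed deposited intensity of the epithelial markers was 3212 with cyclopamine and 3506 in the chip 1 control, and 31215 with GANT61 and 37279 in the chip 2 control. That of the mesenchymal markers was 4669 with cyclopamine and 5465 in the chip 1 control, and 830 with GANT61 and 835 in the chip 2 control. Within a chip, 0 of 3 epithelial markers above background differed by 1.5-fold with cyclopamine, and of 13 with GANT61 2 were higher and 2 lower. The part of these marker differences in the results was not tested.

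With cyclopamine, 8 of the 33 genes were called higher than in the chip 1 control and 0 lower; for ANGPTL4, below background in that control, the measured bound does not reach 1.5-fold, which leaves 7. Of all 8999 genes tested, 9.8% were called higher and 7.82% lower. The 8 were the glucose transporters SLC2A1 and SLC2A3, the regulator PFKFB4, and the hypoxia targets ADM, NDRG1, ANKRD37, VEGFA and ANGPTL4. With GANT61, 14 of the 31 testable genes were called higher than in the chip 2 control and 0 lower, where 10.6% of all 10439 genes were called higher and 9.29% lower. The 14 included SLC2A1, PFKFB4, VEGFA, ADM and NDRG1 again, and added enzymes of the pathway itself. Past 2-fold stood 5 genes with cyclopamine and 6 with GANT61, all higher. Over all genes tested, 3.1% were 2-fold higher and 1.91% lower with cyclopamine, and 3.5% were higher and 2.03% lower with GANT61. The split of all calls into higher and lower depends on the scaling: 55.6% of the calls with cyclopamine were higher, against 22.7% when arrays were scaled to a common median and 20.6% in the deposited series table. For GANT61 the same shares were 53.2%, 27.4% and 36.6%.

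**Figure D1:**
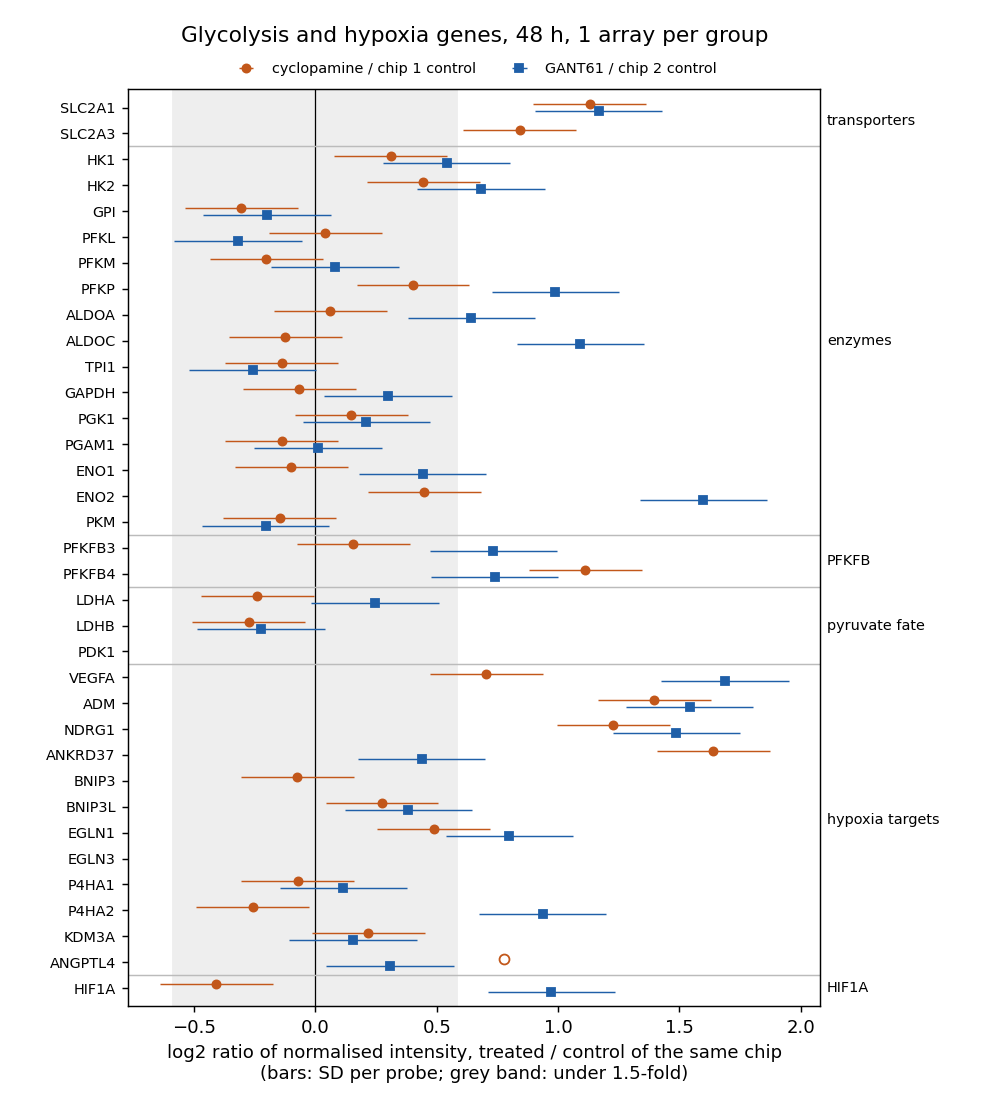
Log2 ratio of normalised intensity (x axis) for each gene (y axis), cyclopamine over the chip 1 control (circles) and GANT61 over the chip 2 control (squares), with bars for the SD per probe (0.23 and 0.26) and a grey band for changes under 1.5-fold. No point lies left of the band, and the enzymes from HK1 to PKM stay inside it with cyclopamine. Genes below background on both arrays of a chip have no point, and the open circle of ANGPTL4 marks a gene below background in the chip 1 control.

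Glucose enters the cell through the SLC2A carriers. SLC2A1, the basal glucose transporter of most cells, had a log2 intensity of 9.83 with cyclopamine, against 8.70 in the chip 1 control, a 2.19-fold difference (log2 ratio 1.13 ± 0.23, SD per probe). On chip 2 it had 11.86 with GANT61, against 10.69 in the control (log2 ratio 1.17 ± 0.26, 2.25-fold). Both ratios were over 4 times the SD per probe, which comes from genes with several probes and does not cover variation between cultures. The chip 1 control lay 1.99 log2 units below the chip 2 control. SLC2A3, a high-affinity transporter best known from neurons, had 13.73 with cyclopamine, against 12.89 in the chip 1 control (log2 ratio 0.84, 1.79-fold). On chip 2 it was below background on both arrays, so no ratio could be given for GANT61.

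The 15 enzymes between glucose and pyruvate gave 0 calls with cyclopamine in either direction. Of all genes tested with cyclopamine, 9.8% were called higher and 7.82% lower. Log2 ratios of the 15 enzymes ran from -0.31 for GPI, the isomerase after hexokinase, to 0.45 for ENO2. Their median was -0.07, against -0.01 over all genes tested. GAPDH, the dehydrogenase often used as a loading standard, differed by -0.07, and PGK1, the first enzyme to return ATP, by 0.15 on its brightest probe and -0.17 on the other. All 3 values are within 1 SD per probe. With GANT61, 5 of the same 15 enzymes were called higher (HK2, PFKP, ALDOA, ALDOC and ENO2), 0 were lower, and the median was 0.30. Of all genes tested with GANT61, 10.6% were called higher and 9.29% lower. The HK2 call rests on 1 of its 2 probes, and the values of the other are given with that gene.

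ENO2, the enolase of neurons and neuroendocrine cells, gave the largest enzyme ratio with GANT61. Its log2 intensity was 9.33 with GANT61, against 7.73 in the chip 2 control (log2 ratio 1.60 ± 0.26, 3.03-fold), while chip 1 gave 8.63 with cyclopamine and 8.18 in its control (0.45 ± 0.23). ENO1, the enolase of most tissues, had 13.26 with GANT61, against 12.82 in the chip 2 control (0.44), while chip 1 gave 14.13 with cyclopamine and 14.23 in its control (-0.10). The ENO2 ratio thus exceeded the ENO1 ratio by 1.16 with GANT61 and by 0.55 with cyclopamine. ALDOC, the brain form of aldolase, had 10.15 with GANT61, against 9.06 in the chip 2 control (1.09, 2.13-fold). The muscle and housekeeping form ALDOA had 13.12 with GANT61, against 12.48 in the chip 2 control (0.64), and with cyclopamine ALDOC and ALDOA differed from the chip 1 control by -0.12 and 0.06. The second ALDOA probe gave 0.48 with GANT61 and -0.05 with cyclopamine, so its GANT61 call also rests on 1 of 2 probes. Probes of ALDOA, ENO1, GAPDH, LDHA, PGAM1, PGK1 and TPI1 may also bind RNA from the many processed copies of these genes, which the arrays cannot separate.

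Phosphofructokinase makes the committed step, and its 3 genes moved apart with GANT61. PFKP, the platelet form, had 11.23 with GANT61, against 10.24 in the chip 2 control (0.99 ± 0.26). PFKL, the liver form, had 7.62 with GANT61, against 7.94 in that control (-0.32), and PFKM, the muscle form, had 8.39 with GANT61, against 8.31 in the control (0.08). With cyclopamine the PFKP, PFKL and PFKM ratios were 0.40, 0.04 and -0.20, all under 1.5-fold. For PFKP a mean over its probes brought the GANT61 ratio down to 0.40, where the second probe was below background on all 4 arrays.

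Hexokinase traps glucose by phosphorylating it. HK2, the inducible form, had 7.42 with GANT61, against 6.74 in the chip 2 control (0.68), while chip 1 gave 8.51 with cyclopamine and 8.06 in its control (0.44). Its second probe gave -0.07 with GANT61 and -0.68 with cyclopamine, so the direction of HK2 was not settled by these arrays. HK1, the constitutive form, differed by 0.54 with GANT61 and 0.31 with cyclopamine. The remaining enzymes TPI1, GAPDH, PGK1, PGAM1, GPI and PKM lay between -0.26 and 0.30 with GANT61. PKM, a pyruvate kinase, was lower on all 3 of its probes with GANT61, by -0.53 to -0.21, and none reached 1.5-fold.

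**Figure D2:**
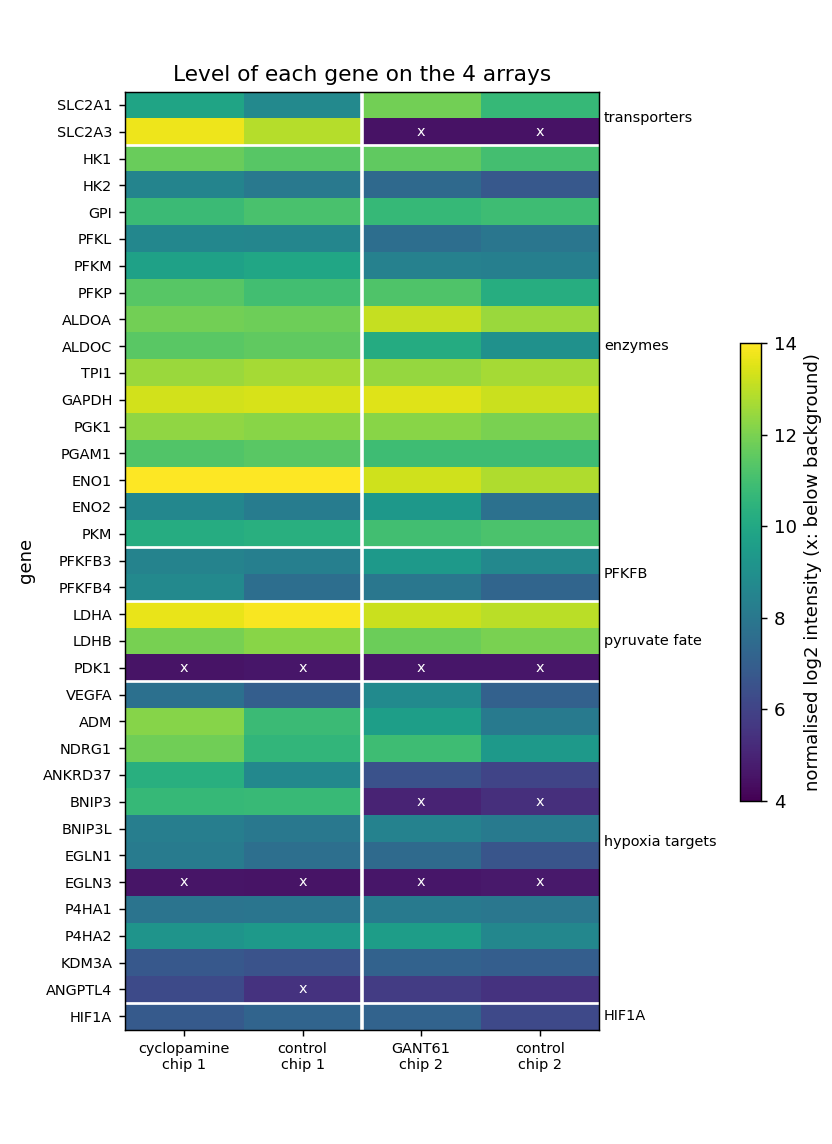
Normalised log2 intensity (colour) of each gene (y axis) on the 4 arrays (x axis), with a white x in cells below background. SLC2A3 and BNIP3 are high on both chip 1 arrays and below background on both chip 2 arrays. ADM and NDRG1 are higher on the treated array than on the control of its chip, on each chip.

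The PFKFB enzymes set the level of fructose 2,6-bisphosphate, the strongest activator of phosphofructokinase. PFKFB4 had a log2 intensity of 8.72 with cyclopamine, against 7.61 in the chip 1 control (1.11 ± 0.23, 2.16-fold), while chip 2 gave 7.98 with GANT61 and 7.24 in its control (0.74 ± 0.26). It was above its own control on both chips. PFKFB3 had 9.40 with GANT61, against 8.67 in the chip 2 control (0.73), while chip 1 gave 8.45 with cyclopamine and 8.30 in its control (0.16). A second PFKFB3 probe gave 0.23 with GANT61, under 1.5-fold. At the end of the pathway, LDHA, which turns pyruvate into lactate, differed by 0.25 with GANT61 and -0.24 with cyclopamine. LDHB, which favours the reverse reaction, differed by -0.22 with GANT61 and -0.27 with cyclopamine. Neither lactate dehydrogenase was called with either compound.

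Among the genes of the main list, the hypoxia targets outside glycolysis had larger medians than the glycolytic genes. With cyclopamine, 5 of 11 tested were called higher, 4 of them shown to reach 1.5-fold, and the median was 0.49, against 3 of 21 glycolytic genes with a median of 0.04. With GANT61, 5 of 10 were higher, all 10 ratios were above 0 and the median was 0.62. Of the glycolytic genes, 8 of 20 were higher with GANT61, with a median of 0.37. The larger medians did not extend to the 45 further hypoxia targets described below. Their medians were -0.01 with cyclopamine (25 tested) and 0.05 with GANT61 (29 tested), below those of the glycolytic genes. Over all genes tested the median was -0.01 in both comparisons, and 9.8% were called higher with cyclopamine and 10.6% with GANT61. The glycolytic share called higher with cyclopamine, 14.3%, lay near that of all genes. The fifth target called with cyclopamine, ANGPTL4, passed the detection filter on the cyclopamine array alone, and its bound is 1.33-fold. Over the 10 targets above background on both chip 1 arrays the median was 0.38. With arrays scaled to a common median, 9 in place of 14 genes were called with GANT61, and the glycolytic medians were 0.014 with GANT61 and -0.24 with cyclopamine, and those of the hypoxia targets 0.43 with GANT61 and 0.31 with cyclopamine. In the deposited log2 table the hypoxia targets had medians of 0.36 with GANT61 and 0.23 with cyclopamine. The median of all genes was -0.20 with GANT61 and -0.25 with cyclopamine under median scaling.

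**Figure D3:**
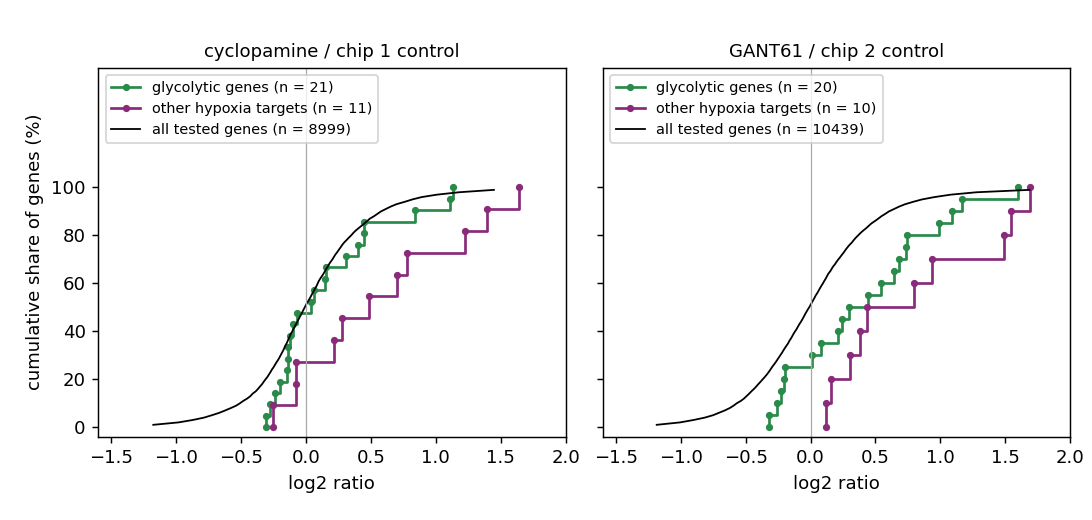
Cumulative share of genes in percent (y axis) by log2 ratio (x axis), cyclopamine over the chip 1 control on the left and GANT61 over the chip 2 control on the right, for glycolytic genes, other hypoxia targets and all tested genes. The glycolytic curve follows all genes with cyclopamine (median 0.04) and lies to their right with GANT61 (median 0.37). The hypoxia targets of the main list lie to the right in both (medians 0.49 and 0.62). The 45 further hypoxia targets, with medians of -0.01 and 0.05, are not part of that curve.

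Among the secreted products, ADM, the vasodilator peptide adrenomedullin, had a log2 intensity of 12.20 with cyclopamine, against 10.80 in the chip 1 control (1.40 ± 0.23, 2.63-fold). It had 9.61 with GANT61, against 8.07 in the chip 2 control (1.54 ± 0.26, 2.91-fold). The ADM ratios of the 2 compounds were within 1 SD per probe of each other. VEGFA, the main growth factor for blood vessels, had 8.78 with GANT61, against 7.09 in the chip 2 control (1.69, 3.22-fold, and 1.15 on a second probe), while chip 1 gave 7.68 with cyclopamine and 6.98 in its control (0.70). The cyclopamine call for VEGFA held in 4 of 9 other processing settings and the GANT61 call in 9 of 9. ANGPTL4, an inhibitor of lipoprotein lipase, was above background with cyclopamine at 6.24 and below it in the chip 1 control, a difference of at least 1.33-fold, and with GANT61 it differed by 0.31.

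NDRG1, an iron- and hypoxia-regulated gene of differentiation, had 11.82 with cyclopamine, against 10.59 in the chip 1 control (1.23, 2.34-fold), while chip 2 gave 10.90 with GANT61 and 9.42 in its control (1.49, 2.80-fold). ANKRD37, a small ankyrin-repeat protein, gave the largest cyclopamine ratio of all 33 genes, with 10.32, against 8.68 in the chip 1 control (1.64, 3.11-fold). Its GANT61 ratio was smaller, with 6.51, against 6.07 in the chip 2 control (0.44). BNIP3 and BNIP3L, receptors that direct mitochondria to autophagy, were not called: BNIP3 differed by -0.07 with cyclopamine and was below background on chip 2, and BNIP3L differed by 0.27 with cyclopamine and 0.38 with GANT61.

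Of the oxygen-dependent hydroxylases, EGLN1 and P4HA2 were called with GANT61 and none with cyclopamine. EGLN1, the chief hydroxylase of HIF1A and itself a hypoxia target, had 7.45 with GANT61, against 6.65 in the chip 2 control (0.80), while chip 1 gave 8.15 with cyclopamine and 7.66 in its control (0.49). P4HA2, a subunit of the collagen prolyl hydroxylase, had 9.57 with GANT61, against 8.64 in the chip 2 control (0.94), and a second probe gave 1.05. With cyclopamine P4HA2 had 9.16, against 9.42 in the chip 1 control (-0.26). Its relative P4HA1 differed by 0.12 with GANT61 and -0.07 with cyclopamine, so the P4HA2 ratio exceeded the P4HA1 ratio by 0.82 with GANT61. KDM3A, a histone demethylase of the same oxygen-dependent class, differed by 0.15 with GANT61 and 0.22 with cyclopamine.

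HIF1A itself differed in opposite directions. Its brightest probe had 7.17 with GANT61, against 6.20 in the chip 2 control (0.97 ± 0.26), while chip 1 gave 6.82 with cyclopamine and 7.23 in its control (-0.41 ± 0.23), which is under 1.5-fold. The other probes gave 1.00 and 0.83 with GANT61. With cyclopamine both of them were below background, and above it in the chip 1 control, at least 1.17-fold and 1.33-fold lower. All 3 probes were therefore higher with GANT61 and lower with cyclopamine, while ADM, NDRG1, SLC2A1 and PFKFB4 were higher with both.

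**Figure D4:**
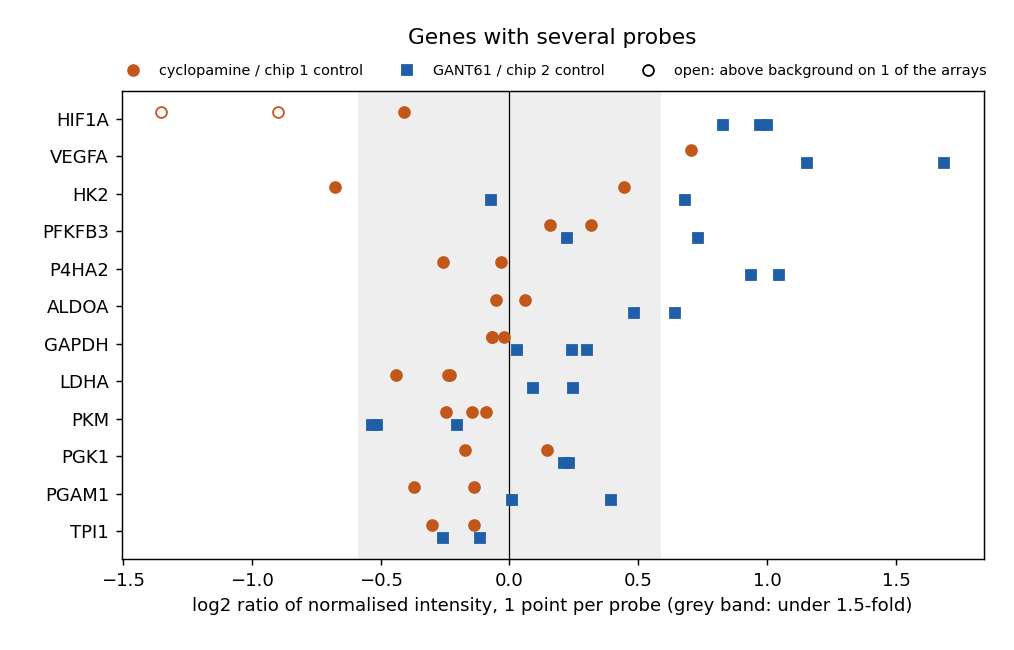
Log2 ratio (x axis) of each probe above background on at least 1 array, for genes with several probes (y axis), cyclopamine over the chip 1 control (circles) and GANT61 over the chip 2 control (squares); open circles mark probes above background on 1 of the arrays. The 3 HIF1A probes lie on opposite sides of 0 for the 2 compounds (-0.41 and below with cyclopamine, 0.83 and above with GANT61), and the 2 HK2 probes disagree with each other.

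Set side by side, 31 genes were tested with both compounds, which share no control array. Of these, 5 were called higher with both (16.1%, against 1.87% of all 8176 genes tested with both). With cyclopamine alone 2 were called (ANKRD37, and ANGPTL4 with its bound of 1.33-fold), 6.45% against 6.85% of all genes, and with GANT61 alone 9 of 31, against 8.75% of all genes. The GANT61 ratio was the larger in 24 of 31 (77.4%, against 50.3% of all genes). Ratios below 0 with cyclopamine and above 0 with GANT61 were found in 9 of 31, a share near the 22.3% of all genes. Across the 31 genes the ratios had a Pearson correlation of 0.54 and a Spearman correlation of 0.55, against 0.23 and 0.20 over 8176 genes. The list was chosen with earlier results of these data known. Genes are also not independent points and share the 4 arrays and their normalisation, so these are descriptions. The compounds were run on different chips with different control levels, and whether their effects differ was not tested.

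The control arrays show how far apart the chips were without either inhibitor. Between the chip 1 control and the chip 2 control, 15 of the 33 genes were called higher and 3 lower (ALDOA, PKM and SLC2A1), where 29.4% of all 10905 genes were called higher and 34.3% lower. At 2-fold 11 were higher and 1 lower, beside 19.1% and 23.3% of all genes. Among the 15, HIF1A is not settled, since its 3 probes ran from -0.73 to 1.03. The lower call of ALDOA rests on its brightest probe (-0.69). A second probe above background on both controls gave -0.22, under 1.5-fold. SLC2A3 was at least 182-fold higher and BNIP3 at least 41.6-fold higher in the chip 1 control, since both were below background on chip 2. ADM was higher by 2.73, ANKRD37 by 2.61, ALDOC by 2.49 and ENO1 by 1.41. In 17 of 33 genes the gap between the controls was larger in size than the ratio of either compound, and chip, culture, labelled vehicle and, given the marker levels, a possible difference of cell line cannot be told apart in it.

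**Figure D5:**
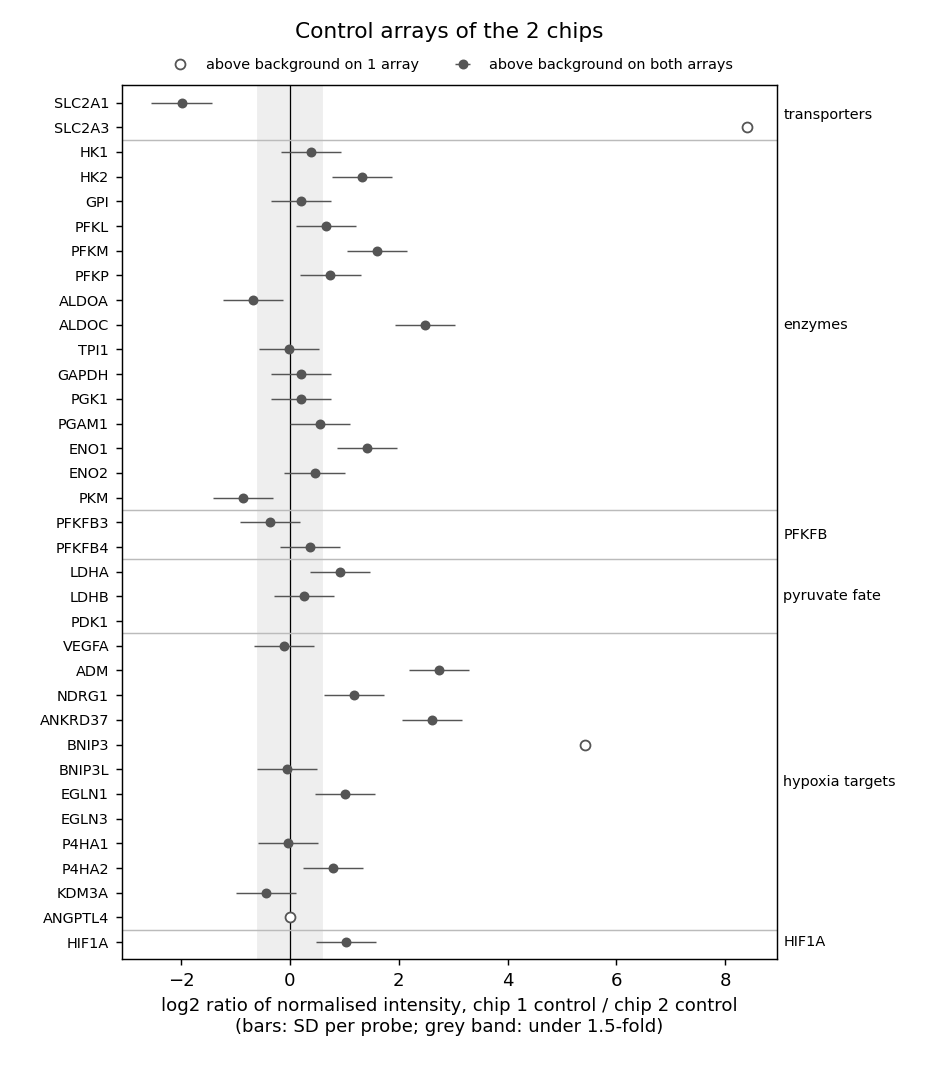
Log2 ratio of the chip 1 control over the chip 2 control (x axis) for each gene (y axis), with bars for the SD per probe (0.55). SLC2A3 and BNIP3 lie farthest right, and SLC2A1 lies farthest left at -1.99.

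Further genes of the same pathways differed in both directions. Of 41 further glycolysis and pyruvate genes, 19 were tested with cyclopamine, and 0 were called higher and 6 lower, 5 of them shown to reach 1.5-fold, with a median of -0.27. With GANT61 5 of 23 were higher and 2 lower, with a median of 0.12. Over all genes tested, 9.8% were called higher and 7.82% lower with cyclopamine, and 10.6% higher and 9.29% lower with GANT61. Past 2-fold stood SLC2A6, a lysosomal sugar carrier, with 7.71 on the GANT61 array, against 6.20 in the chip 2 control (1.51), and HKDC1, a further hexokinase, with 10.02 on the GANT61 array, against 8.79 in the control (1.22). HKDC1 was below background on chip 1. LDHD, which oxidises D-lactate, was below background with cyclopamine and at 6.35 in the chip 1 control, at least 1.33-fold lower, and is the sixth. Of 14 further genes of the HIF pathway, 3 of 13 were called higher with cyclopamine and 2 of 11 with GANT61, none past 2-fold, and 0 were lower with either. Of the 3, HIF3A and EP300 were below background in the chip 1 control, with bounds of 1.27-fold and 1.12-fold, so that 1 is shown to reach 1.5-fold.

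Of 45 further hypoxia targets, 5 of 25 were higher and 0 lower with cyclopamine, with a median of -0.01. With GANT61 7 of 29 were called higher and 3 lower, 2 of these shown to reach 1.5-fold, with a median of 0.05. Both medians lie close to those of all genes. Of all genes tested, 9.8% were called higher and 7.82% lower with cyclopamine, and 10.6% higher and 9.29% lower with GANT61. BHLHE40, a circadian and hypoxia-regulated repressor, was higher with both: 12.17 with cyclopamine, against 11.07 in the chip 1 control (1.10), while chip 2 gave 9.80 with GANT61 and 7.50 in its control (2.29). ERRFI1, an inhibitor of EGF receptor signalling, was also higher with both, by 0.74 with cyclopamine and 1.02 with GANT61. DDIT4, an inhibitor of mTOR signalling, had 12.02 with GANT61, against 10.61 in the chip 2 control (1.42), and differed by 0.42 with cyclopamine.

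CA12, a carbonic anhydrase like CA9, had 10.43 with GANT61, against 9.27 in the chip 2 control (1.16), with no signal above background on the chip 1 arrays. HMOX1, the haem oxygenase, had 7.66 with GANT61, against 6.32 in the chip 2 control (1.34), while chip 1 gave 7.87 with cyclopamine and 8.22 in its control (-0.35). STC1, a secreted glycoprotein, had 8.89 with cyclopamine, against 7.50 in the control of that chip (1.39). On the GANT61 array it was below background, at least 1.22-fold lower than the 5.78 of the chip 2 control. INSIG2, which restrains sterol synthesis, was at least 1.75-fold higher with cyclopamine. CXCR4, a chemokine receptor, had 5.56 with GANT61, against 6.83 in the chip 2 control (-1.27), while chip 1 gave 9.68 with cyclopamine and 9.19 in its control (0.49). A second CXCR4 probe, above background on both chip 1 arrays, gave 0.65 with cyclopamine, past 1.5-fold. The leukocyte marker CD68, also a lysosomal protein, was 1.75 higher on the log2 scale with cyclopamine on its brightest probe, while its other probes, also above background on both chip 1 arrays, gave 0.05 and -0.15.

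Promoters are shown for genes that were higher with a compound and for PGK1, which was not, because ACGTG and GCGTG are the letters HIF1A binds. Sequences are the 250 bases before the annotated start, from RefSeq on GRCh38.p14 and read 5′ to 3′ on the gene's strand; capitals mark ACGTG or GCGTG on either strand, so CACGT and CACGC are the same motifs read on the other strand, and CACGTG holds ACGTG on both strands. ENO2 lies at chr12:6914330-6914579 (+ strand), ALDOC at chr17:28576896-28577145 (- strand) and PGK1 at chrX:78103998-78104247 (+ strand). PFKFB4 lies at chr3:48556804-48557053 (- strand), and ADM at chr11:10304823-10305072 (+ strand), where the window also overlaps SBF2. SLC2A1 lies at chr1:42958869-42959118 (- strand), where it overlaps the noncoding gene SLC2A1-DT. For ANKRD37 30 bases at chr4:185396676-185396705 (+ strand) are given, inside LRP2BP.
ENO2: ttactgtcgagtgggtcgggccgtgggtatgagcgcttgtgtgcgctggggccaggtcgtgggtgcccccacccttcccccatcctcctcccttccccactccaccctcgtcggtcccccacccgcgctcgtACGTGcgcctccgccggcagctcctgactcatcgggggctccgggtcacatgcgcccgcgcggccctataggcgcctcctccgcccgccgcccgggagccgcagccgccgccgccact
ALDOC: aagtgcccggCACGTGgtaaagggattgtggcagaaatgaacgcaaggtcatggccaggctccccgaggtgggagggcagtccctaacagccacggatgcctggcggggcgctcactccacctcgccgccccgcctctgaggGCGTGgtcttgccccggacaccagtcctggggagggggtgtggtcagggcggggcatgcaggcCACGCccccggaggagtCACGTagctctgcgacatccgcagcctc
PGK1: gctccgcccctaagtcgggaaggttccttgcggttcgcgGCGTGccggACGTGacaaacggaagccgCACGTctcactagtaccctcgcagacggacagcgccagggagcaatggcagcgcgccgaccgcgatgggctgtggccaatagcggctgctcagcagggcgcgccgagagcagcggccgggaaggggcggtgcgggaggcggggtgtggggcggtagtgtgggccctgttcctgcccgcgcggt
PFKFB4: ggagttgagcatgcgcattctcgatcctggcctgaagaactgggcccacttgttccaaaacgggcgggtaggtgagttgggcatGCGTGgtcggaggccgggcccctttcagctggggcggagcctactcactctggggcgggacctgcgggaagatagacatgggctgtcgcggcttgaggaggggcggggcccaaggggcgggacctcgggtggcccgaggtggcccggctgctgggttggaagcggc
ADM: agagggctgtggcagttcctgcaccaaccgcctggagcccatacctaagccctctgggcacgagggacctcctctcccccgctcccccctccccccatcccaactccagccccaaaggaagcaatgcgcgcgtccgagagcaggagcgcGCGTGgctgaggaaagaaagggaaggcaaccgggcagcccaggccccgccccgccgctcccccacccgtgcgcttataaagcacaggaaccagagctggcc
SLC2A1: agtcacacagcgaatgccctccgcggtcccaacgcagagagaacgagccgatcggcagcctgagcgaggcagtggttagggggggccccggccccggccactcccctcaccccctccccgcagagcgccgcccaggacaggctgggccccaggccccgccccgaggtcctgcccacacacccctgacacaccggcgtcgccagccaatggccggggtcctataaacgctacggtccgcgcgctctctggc
ANKRD37: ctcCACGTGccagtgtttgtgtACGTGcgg

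Of these windows, PGK1 holds 3 motifs and had ratios of 0.15 with cyclopamine and 0.21 with GANT61, while SLC2A1 holds none and was higher with both compounds. ALDOC holds 4, with CACGTG starting at position -240, and ENO2 holds 1 at -118, counted from the base before the annotated start as -1. A window was found for 32 of the 36 genes, 56 windows in all, since some genes have several annotated starts; SLC2A3, VEGFA, NDRG1 and BNIP3L are named only. The motif stood in 17 of 22 windows of genes called higher with either compound (77.3%) and in 16 of 34 windows of the others (47.1%). All 35116 promoters held it in 43.2%, and those of genes above background on at least 1 array in 54.6%. Promoters within the middle range of CG counts over all 56 windows held it in 58.9%. Their median CG count was 19, against 25.5 in the windows of genes called higher, so they are not matched to these. CACGTG stood in 5 of 22 windows of genes called higher (22.7%), 8.82% of the others and 6.34% of all promoters. It stood in 8.35% of promoters of genes above background on at least 1 array, and in 8.73% of those within that CG range. CACGTG was not counted by gene. HK1 and PFKM, neither of them called, have 7 windows each with the motif in 1 of the 7. Counted by gene, 12 of 14 genes called higher and 14 of 18 others had the motif in at least 1 window, so the counts lie closer than by window. These are counts of letters in windows that share genes, with no test, and they show no binding.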

How the data were processed

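The deposited tables give, per the file headers, an average signal intensity and a detection p-value for each of 47228 probes on the chip 1 arrays and 47229 on the chip 2 arrays, 47227 of them shared. A separate deposited table holds log2 values, which matched the log2 of those intensities within 5e-09 on all 4 arrays, so it carries no further normalisation. No source used here gives the scanner software or its background treatment. Median intensity was 91.1 with cyclopamine, 90.2 in the chip 1 control, 74.9 with GANT61 and 72.8 in the chip 2 control. Detected probes (p under 0.01) were 28.5%, 29.4%, 33.8% and 36.1% of the shared probes in that order. The number of arrays limits the precision, not a count depth.

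All 4 arrays were normalised together with neqc (limma 3.58.1 in R 4.3.3, offset 16), which corrects background from the detection p-values and equalises the distributions. Probes were named from the platform annotation: 30111 had 1 symbol, 8 several and 17108 none, and 30072 matched a current gene ID. A gene is represented by its probe with the highest mean over the 4 arrays; other probes are given where they change the sign or call of a value that is described. Where 1 of the 2 arrays was below background, the fold is a bound against the lowest detected signal of that array, "at least N-fold"; calls use the fitted ratio, and the text says where the bound stays under 1.5-fold. The ratio and call steps were tested on simulated data.

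Named genes are all members with a probe and, of the further pathway lists, those at least 2-fold apart with either compound; the promoter windows and CD68 were chosen after their values were seen. Members and lists were chosen with earlier results of these data known. Alternatives were neqc within each chip, no background correction, offset 50, median scaling, the deposited log2 table, 3 detection rules, the mean over probes and a 2-fold threshold.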

Additional observations from a re-analysis of the deposited data

Results flagged for a closer look

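HIF1A differed in opposite directions with the 2 compounds. The mean log2 ratio over its 3 probes was -0.89 for cyclopamine against the chip 1 control and 0.93 for GANT61 against the chip 2 control, with each probe on the same side of 0 as its mean. The result was picked out because every probe of 1 comparison moved one way and every probe of the other the opposite way. With 1 array per group the difference was not tested, and the compounds lie on different chips, so compound and chip cannot be told apart. The cyclopamine mean includes 2 dimmer probes below background with cyclopamine, which are only shown to be at least 1.17-fold and 1.33-fold lower. The probe above background on both arrays gave -0.41, under 1.5-fold, so the size of -0.89 is not measured.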

How the results depend on the processing

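No paired analysis was possible because each group has 1 array, and for the same reason no array could be left out. Genes called higher with GANT61 numbered 9 under median scaling, 9 in the deposited log2 table and 6 at 2-fold, against 14. With cyclopamine 5 were higher at 2-fold, against 8, and lower calls, 0 as reported, became 2 under median scaling (GPI and HIF1A), 1 in the deposited table (GPI) and 1 with the mean over probes (HIF1A). Between the controls 7 were lower under median scaling and 1 at 2-fold, against 3. The glycolytic median with GANT61 was 0.014 under median scaling and 0.057 in the deposited table, against 0.37. With cyclopamine it turned below 0, at -0.24 under median scaling, -0.26 in the deposited table, -0.013 with no detection filter and -0.051 with the mean over probes, against 0.04. The median of the hypoxia targets with cyclopamine was 0.23 in the deposited table, against 0.49, and with GANT61 0.36, against 0.62. Median scaling moved the median of all genes to -0.25 with cyclopamine and -0.20 with GANT61, and the deposited table to -0.19 and -0.11. Taken relative to the all-gene median of each of 10 settings, the glycolytic median lay between 0.16 and 0.38 with GANT61 and between -0.07 and 0.05 with cyclopamine, and that of the hypoxia targets between 0.41 and 0.64 and between 0.32 and 0.56.

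SLC2A1, SLC2A3, PFKFB4, ADM, NDRG1 and ANKRD37 kept their cyclopamine call in all 9 settings, and ANGPTL4 in 2 of 8. SLC2A1, ALDOC, ENO2, VEGFA, ADM, NDRG1, P4HA2 and HIF1A kept their GANT61 call in all 9, PFKP in 8, ALDOA, PFKFB3, PFKFB4 and EGLN1 in 6, and HK2 in 4. No single gene past 1.5-fold changed sign; 52 of 296 values moved by more than 1 SD per probe with cyclopamine, 32 of 279 with GANT61 and 18 of 261 between the controls. At the 1.5-fold threshold, counts over all genes ran from 204 to 1092 higher and 288 to 1530 lower with cyclopamine, against 882 and 704 as reported, and from 532 to 1160 higher and 549 to 1849 lower with GANT61, against 1104 and 970. Normalising within each chip gives no value between the controls, and medians have no 2-fold setting. The cause of these changes was not tested. For ANGPTL4 and the dimmer HIF1A probes, below background on 1 chip 1 array, the ratios entered the counts and means as fitted, and the bounds given with them are what the signal shows.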
